A study of Mus musculus with 6 samples.

Results

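Interferon effector families are described here in adherent cultures of old and young mouse bone marrow. The labels call them BMDM (bone marrow-derived macrophages), and they are written as macrophages below. This word names the cultures and not their cell content. In every library the 10 stromal markers read here summed to a higher level than the 16 macrophage markers. The list holds 60 genes in 14 groups: the OAS, IFIT, Mx, RIG-I-like, ISG15, GBP, IRG, IFI200 and IFI27 families, the viperin pair, and smaller sets of nucleic acid effectors, PARP9-DTX3L genes, membrane restriction factors and other effectors. It was taken by symbol from the 39017 gene identifiers of the count table. Of the 60 genes, 58 were matched and all 58 passed the low-count filter; Gbp5 and Gbp6 were not analysed here.

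RNA was sequenced in 3 libraries from old and 3 from young BALB/c wild-type mice, without any treatment. Old mice were over 78 weeks of age and young mice were 3 weeks. Marrow of crushed limb bones was cultured, the non-adherent cells were removed, and the adherent cells carried F4/80 and CD169, 2 surface markers of macrophages. RNA of 10000 cells made each library. Nothing in the labels says that the libraries of an age came from separate animals or cultures, so p-values measure only the spread between these libraries.

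Interferons are secreted signals that tell cells of a viral or intracellular infection. Type I and type II interferons bind separate receptors, act through kinases and transcription factors, and switch on a broad set of genes by way of short promoter elements, the interferon-stimulated response element (ISRE) and the gamma-activated site (GAS). Macrophages make the products of many of these genes at a low level without infection. OAS enzymes, IFIT proteins, the RIG-I-like receptors and Zbp1 recognise foreign nucleic acid, GBP and IRG proteins are guanosine triphosphatases that attack vacuoles holding microbes, and IFI200 proteins bind DNA.

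The promoter elements were read in RefSeq windows of the GRCm38.p6 build that run from 250 bases before to 50 bases after each gene start, and 42 of the 60 genes had such a window. The ISRE core, GAAA and GAAA with NN between them on either strand, was present in 28 of the 42 (66.7%), against 3.99% of all 27025 genes with a window. The GAS letters TTCNNNGAA were present in 14 of the 42 (33.3%), against 9.55% of all genes with a window. Both motifs were searched separately, so their letters may overlap. A gene with several windows was counted if any of them held the motif, and 10 genes had both motifs. The sequences below are shown because they hold the ISRE core, which most but not all of the genes with a window had. The first 6 belong to the most abundant gene with a core, among those lower in old macrophages, of 6 families. Gbp2 and Ddx58, whose levels did not pass the test between ages, were added as a contrast after their values were seen. Each runs 5′ to 3′ on the gene's strand, capitals mark the core letters on either strand, and overlapping cores form a longer run of capitals.
Oas1g, chr5:120887614-120887661, minus strand: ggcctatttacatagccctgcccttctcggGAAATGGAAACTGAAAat
Ifit3, chr19:34583343-34583446, plus strand: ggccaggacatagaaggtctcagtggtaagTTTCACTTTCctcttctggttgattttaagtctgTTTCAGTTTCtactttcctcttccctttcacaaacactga
Isg15, chr4:156200845-156200926, minus strand: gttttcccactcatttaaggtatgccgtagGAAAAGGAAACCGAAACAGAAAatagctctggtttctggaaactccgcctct
Gbp7, chr3:142530253-142530322, plus strand: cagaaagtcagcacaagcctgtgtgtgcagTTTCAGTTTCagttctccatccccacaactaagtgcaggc
Irgm1, chr11:48871421-48871480, minus strand: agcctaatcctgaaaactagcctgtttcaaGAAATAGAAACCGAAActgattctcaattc
Ifi203, chr1:173942493-173942557, minus strand: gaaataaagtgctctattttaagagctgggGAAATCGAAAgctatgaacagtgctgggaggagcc
Gbp2, chr3:142620574-142620643, plus strand: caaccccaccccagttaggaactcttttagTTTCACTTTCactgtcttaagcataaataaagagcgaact
Ddx58, chr4:40239814-40239853, minus strand: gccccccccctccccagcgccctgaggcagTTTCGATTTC

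In these windows Isg15 held 3 overlapping cores that begin 78 to 66 bases before the gene start, Irgm1 held 2 that begin 30 and 24 bases before it, and Ifit3 held 2 separate ones at 156 and 122 bases. Among genes lower in old macrophages, 14 of 17 with a window had a core (82.4%), as did 13 of 23 genes that were not called (56.5%). Some windows are copies of each other: Ifit3 and Ifit3b shared an identical run of 169 bases, Mndal and Ifi203 of 139 bases, and Oas1a and Oas1g of 73 bases. These shares therefore describe the list and were not tested. A core was present both in genes that differed with age, such as Irgm1, and in genes that did not pass the test, such as Gbp2.

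Across the libraries, total counts were 36136137 to 43367734 in old and 34391206 to 35813492 in young macrophages. In a principal component analysis, old and young libraries lay on opposite sides of component 1 (53% of variance). Young replicate 3 stood apart on component 2 (16.1%), and its counts differed from those of young replicates 1 and 2 about as strongly as 122 to 129 times sampling noise (chi-square over degrees of freedom), against 24.7 to 33.6 for the other pairs within an age. The number of calls among the interferon genes is therefore also given without it, and for other lists where stated. Adgre1, the gene of F4/80, was at 197 to 245 CPM (counts scaled to library size) in old and 385 to 530 CPM in young macrophages, and Siglec1, the gene of CD169, at 37.9 to 48.4 CPM in old and 125 to 139 CPM in young macrophages. The 10 stromal markers summed to 23525 to 29634 CPM in old and to 34262, 30818 and 68480 CPM in young replicates 1, 2 and 3. Most of it came from the collagens Col1a1, Col1a2 and Col3a1. The 16 macrophage markers summed to less, 5074 to 5475 CPM in old and 9043 to 10772 CPM in young libraries. The word macrophages therefore names the cultures, and their purity was not tested. Of the 10 stromal markers, Cxcl12 and Pdgfra were higher in old macrophages (log2 fold changes 1.36 and 1.23, edgeR adjusted p = 0.0022 and 0.0014). Lum and Lepr were lower (-3.14 and -0.73, edgeR adjusted p = 0.018 and 0.042). Col1a1 passed as lower only without young replicate 3 (log2 fold change -0.57, edgeR adjusted p = 0.019). The count of lower stromal markers was 0 or 1 without any 1 library, and the part of these markers in the results was not tested.

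Of the 58 genes tested, 26 were lower and 2, Ifi27 and Samhd1, were higher (edgeR quasi-likelihood test, Benjamini-Hochberg adjusted p under 0.05 over all 15567 genes tested), and 30 did not pass the test. The background over all genes tested was 4.70% lower and 5.84% higher. The median log2 fold change, old over young, was -0.80 over the 58 genes and -0.01 over all genes tested, and 53 of the 58 fold changes were negative. CPM ranges did not overlap for 39 of the 58: 37 had every old library below every young one (14.3% of all genes tested) and 2 had every old library above (15.9%). The genes that passed the test as lower had log2 fold changes between -3.63 and -0.65, and 18 of the 26 were at least 2-fold lower. In bulk RNA, fewer cells of a type and less RNA per cell cannot be told apart.

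**Figure D1:**
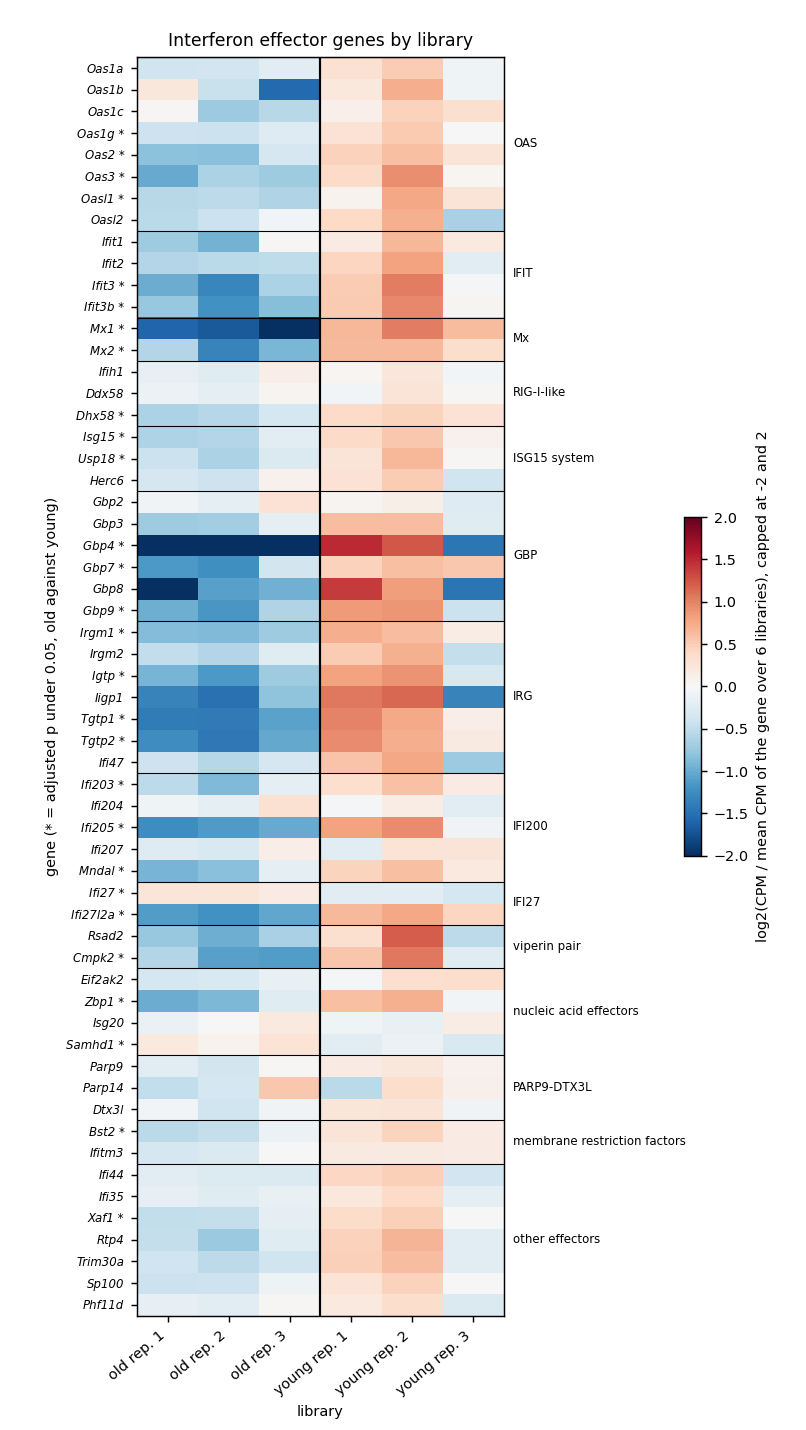
Level of each of the 58 genes in each library, as log2 of its CPM over its mean CPM in the 6 libraries (colour, capped at -2 and 2), with the 3 old libraries on the left and genes grouped by family; asterisks mark adjusted p under 0.05. The old libraries are below the gene mean for most rows, young replicates 1 and 2 are above it, and young replicate 3 lies nearer to the old libraries in the Gbp4, Gbp8 and Iigp1 rows than in the Mx rows.

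**Figure D2:**
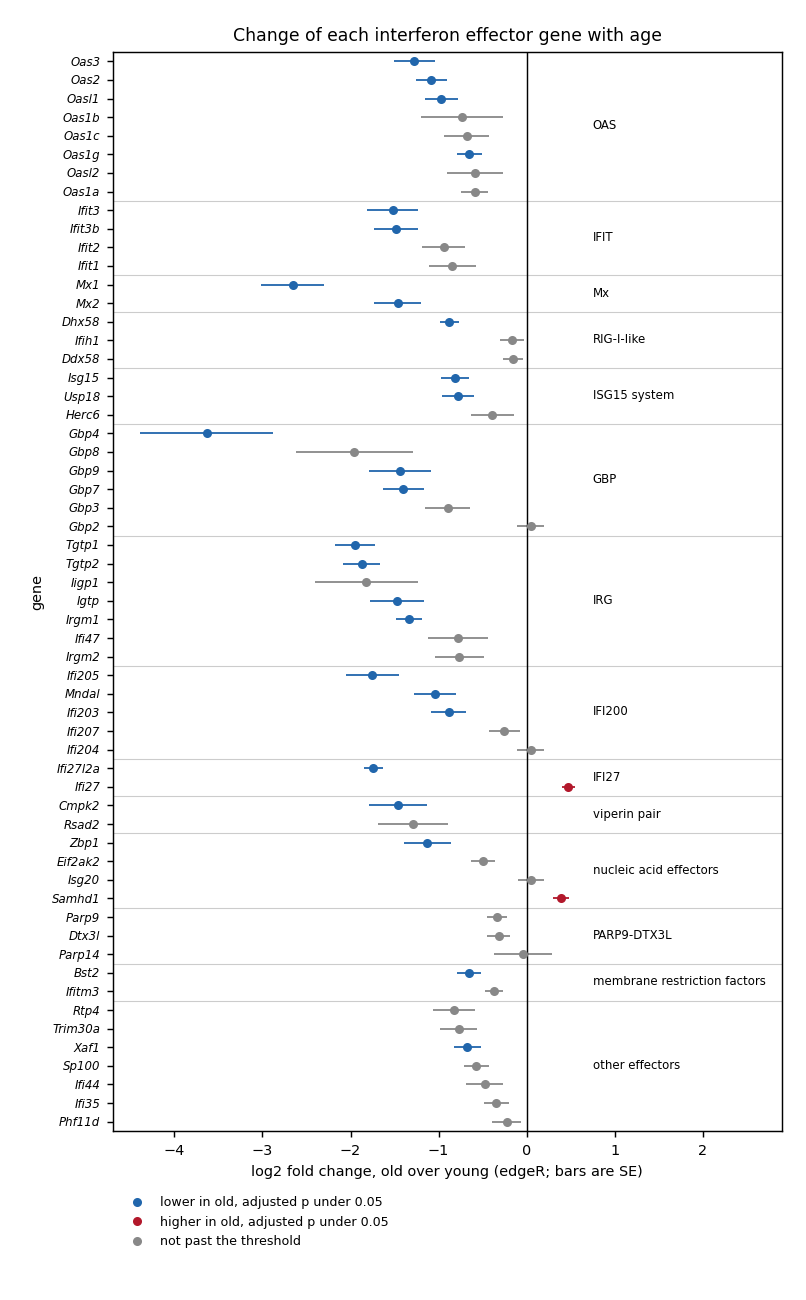
Log2 fold change, old over young, of each gene (points) with its SE (bars), grouped by family; blue is lower and red higher in old at adjusted p under 0.05, and grey did not pass. 53 of the 58 points lie left of 0, with Gbp4 farthest at -3.63, and the 2 red points are Ifi27 and Samhd1.

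The IRG family, on chromosome 11 except for 1 gene, had 4 of 7 genes lower in old macrophages. Irgm1 regulates the other IRG proteins and helps to keep them off the cell's own membranes. It was at 149, 148 and 166 CPM in old libraries, against 448, 417 and 303 CPM in young ones. All old values lay below all young ones, and the log2 fold change was -1.34 ± 0.15 (SE, edgeR adjusted p = 0.0025). Tgtp2, an effector IRG protein that settles on vacuoles, was at 37.2, 32.6 and 43.04 CPM in old and at 169, 145 and 99.6 CPM in young libraries (log2 fold change -1.87 ± 0.20, edgeR adjusted p = 0.0024). Its near-copy Tgtp1 was at 12.003, 11.8 and 15.1 CPM in old and at 62.7, 53.3 and 34.9 CPM in young libraries (log2 fold change -1.95 ± 0.23, edgeR adjusted p = 0.0028). Neither range overlapped between ages, but 76.8% of the 100-base windows of Tgtp2 transcripts also occur in Tgtp1, so the split of reads between them is uncertain. Igtp, another regulatory member, was at 29.0, 25.0 and 33.7 CPM in old and at 96.3, 104 and 44.5 CPM in young libraries (log2 fold change -1.48 ± 0.31, edgeR adjusted p = 0.025). Young replicate 3 was closer to the old values for Igtp than the other young libraries were.

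For Irgm2, Iigp1 and Ifi47, the other IRG genes, the adjusted p was 0.11 to 0.22 with all libraries. Iigp1, an effector that loads onto vacuoles of the parasite Toxoplasma, was at 42.5, 38.5 and 61.9 CPM in old and at 223, 238 and 42.8 CPM in young libraries. Young replicate 3 fell inside the old range, and the other young libraries were far above it. Ifi47 likewise had 62.1, 56.1 and 65.6 CPM in old and 123, 142 and 50.4 CPM in young libraries, with young replicate 3 below all old ones. Without young replicate 3, all 7 IRG genes passed the test as lower, and without any other single library only Irgm1, Tgtp1 and Tgtp2 did.

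In the GBP family, whose members coat microbes and their vacuoles, 3 of 6 genes were lower in old macrophages. Gbp7 was at 10.3, 9.79 and 17.6 CPM in old and at 31.3, 34.8 and 33.3 CPM in young libraries, without overlap (log2 fold change -1.40 ± 0.23, edgeR adjusted p = 0.011; 11.3% of its exon length overlaps the predicted gene Gm43802). Young replicate 3 was level with the other young libraries for Gbp7. Gbp4 showed the widest change of the list, at 1.597, 1.56 and 3.50 CPM in old and at 41.8, 34.8 and 5.44 CPM in young libraries (log2 fold change -3.63 ± 0.75, edgeR adjusted p = 0.025). Its ranges did not overlap, but young replicates 1 and 2 together averaged 7.05 times young replicate 3. Gbp9 was at 5.96, 5.22 and 7.66 CPM in old and at 21.0, 21.5 and 8.62 CPM in young libraries, again with young replicate 3 nearest to the old ones (log2 fold change -1.44 ± 0.35, edgeR adjusted p = 0.044).

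Gbp2, the most abundant GBP gene by CPM, did not pass the test. It was at 53.3, 48.9 and 68.0 CPM in old and at 57.7, 60.2 and 46.5 CPM in young libraries, and the ranges overlapped (log2 fold change 0.05 ± 0.15, edgeR adjusted p = 0.90). Its neighbour Gbp3 and the chromosome 5 gene Gbp8 had log2 fold changes of -0.90 and -1.96 with adjusted p of 0.073 and 0.12 (edgeR). Without young replicate 3, all of the GBP genes except Gbp2 passed as lower, 5 of 6, whereas none passed without old replicate 1.

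The OAS family makes oligoadenylates that switch on the RNA-cutting enzyme RNase L, and its 8 genes lie in 2 clusters on chromosome 5 that span 177 and 41.0 kb. Of these, 4 were lower in old macrophages, and all 8 log2 fold changes were negative. Oas3, whose product binds long double-stranded RNA, was at 14.5, 18.9 and 17.9 CPM in old and at 38.1, 55.9 and 30.02 CPM in young libraries (log2 fold change -1.27 ± 0.23, edgeR adjusted p = 0.016). Oas2 was at 9.13, 9.09 and 12.8 CPM in old and at 22.1, 24.4 and 19.3 CPM in young libraries (log2 fold change -1.08 ± 0.18, edgeR adjusted p = 0.010). Neither gene's ranges overlapped. Oasl1, an OAS-like protein that in mice restrains the making of the factor Irf7, was at 14.9, 15.2 and 14.4 CPM in old and at 23.1, 37.6 and 26.2 CPM in young libraries (log2 fold change -0.97 ± 0.19, edgeR adjusted p = 0.019). The 3 old values were nearly level, whereas young replicate 2 stood above the other young libraries.

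Oas1g was at 24.5, 24.2 and 27.2 CPM in old and at 39.9, 46.7 and 32.5 CPM in young libraries (log2 fold change -0.65 ± 0.14, edgeR adjusted p = 0.031). Oas1a, the most abundant OAS gene, was at 82.1, 82.8 and 93.6 CPM in old and at 133, 154 and 102 CPM in young libraries (log2 fold change -0.59 ± 0.15, edgeR adjusted p = 0.052). The ranges of both genes were apart, and the copies share 40.9% of Oas1a windows, so their reads can be mixed. Oas1b, of which laboratory strains carry a form with an early stop, and Oas1c stayed at 0.47 to 3.79 CPM in all libraries, with adjusted p of 0.41 and 0.16 (edgeR). Oasl2, an enzymatically active OAS, had a young replicate 3 below all old libraries and did not pass (edgeR adjusted p = 0.33). Without young replicate 3, 6 OAS genes passed as lower, and none did without old replicate 1 or old replicate 2.

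The 4 IFIT genes, which lie within 99.3 kb on chromosome 19 and encode proteins that bind viral RNA, were all below the young libraries in every old library. Ifit3 was at 12.6, 10.2 and 16.2 CPM in old and at 35.9, 51.4 and 24.6 CPM in young libraries (log2 fold change -1.52 ± 0.29, edgeR adjusted p = 0.018). Its copy Ifit3b was at 6.55, 4.78 and 6.14 CPM in old and at 16.0, 21.5 and 11.4 CPM in young libraries (log2 fold change -1.48 ± 0.25, edgeR adjusted p = 0.012), with 27.4% of its windows shared with Ifit3. In both genes young replicate 2 was highest and young replicate 3 lowest of the young libraries. Ifit1, which holds on to RNA that lacks the host's cap methylation, was at 24.9, 21.3 and 41.6 CPM in old and at 45.8, 65.1 and 46.6 CPM in young libraries (log2 fold change -0.84 ± 0.27, edgeR adjusted p = 0.099). Old replicate 3 was the nearest to the young libraries for Ifit1, and without old replicate 3 the gene passed the test. Ifit2 had a log2 fold change of -0.94 and an edgeR adjusted p of 0.050, just above the threshold.

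Both Mx genes, dynamin-like guanosine triphosphatases that block virus replication, were lower in old macrophages but scarce. Mx1 was at 0.39, 0.36 and 0.19 CPM in old and at 1.86, 2.38 and 1.81 CPM in young libraries (log2 fold change -2.65 ± 0.36, edgeR adjusted p = 0.0050). Mx2 was at 1.35, 0.80 and 1.08 CPM in old and at 3.20, 3.17 and 2.59 CPM in young libraries (log2 fold change -1.46 ± 0.27, edgeR adjusted p = 0.015). The old and young ranges did not overlap for Mx1 or Mx2, and young replicate 3 was the lowest young library for both. Most laboratory strains, BALB/c among them, carry Mx1 alleles that give no working protein.

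The RIG-I-like receptors, cytoplasmic sensors of viral RNA, did not move together. Dhx58 (LGP2), a member without the signalling domain that modulates the other receptors, was at 20.8, 21.8 and 25.3 CPM in old and at 41.8, 43.8 and 39.3 CPM in young libraries (log2 fold change -0.88 ± 0.11, edgeR adjusted p = 0.0034). Ddx58 (RIG-I) was at 92.2, 87.01 and 104 CPM in old and at 95.7, 119 and 101 CPM in young libraries, with overlapping ranges (log2 fold change -0.16 ± 0.11, edgeR adjusted p = 0.48). Ifih1 (MDA5) was at 27.9 to 36.2 CPM in old and 31.8 to 38.8 CPM in young libraries (log2 fold change -0.16 ± 0.13, edgeR adjusted p = 0.53). Dhx58 passed in every fit that left out 1 library, and Ddx58 and Ifih1 in none. The difference between Dhx58 and the other receptors was not itself tested.

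Isg15, a ubiquitin-like protein that is attached to newly made proteins, and Usp18, which removes it and also restrains the type I receptor, were both lower in old macrophages. Isg15 was at 38.1, 38.7 and 49.8 CPM in old and at 75.8, 84.7 and 61.7 CPM in young libraries (log2 fold change -0.81 ± 0.16, edgeR adjusted p = 0.018). Usp18 was at 42.5, 37.3 and 47.3 CPM in old and at 68.4, 91.2 and 58.3 CPM in young libraries (log2 fold change -0.78 ± 0.18, edgeR adjusted p = 0.034). The ranges of Isg15 and Usp18 did not overlap. Herc6, the mouse ligase that attaches Isg15, overlapped between ages (log2 fold change -0.39 ± 0.24, edgeR adjusted p = 0.40; 13.7% of its exon length overlaps the predicted gene Gm45193). Without young replicate 3 all 3 genes passed as lower, without old replicate 3 only 1 did, and without any other library none did.

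The 5 IFI200 genes tested lie within 308 kb on chromosome 1, and 3 were lower in old macrophages. Ifi203 was at 14.1, 11.1 and 17.7 CPM in old and at 25.7, 30.6 and 22.9 CPM in young libraries (log2 fold change -0.89 ± 0.20, edgeR adjusted p = 0.031). Ifi205 was at 1.23, 1.32 and 1.44 CPM in old and at 5.11, 5.63 and 2.76 CPM in young libraries (log2 fold change -1.75 ± 0.30, edgeR adjusted p = 0.012). Mndal was at 3.63, 3.89 and 6.08 CPM in old and at 9.45, 10.5 and 7.93 CPM in young libraries (log2 fold change -1.04 ± 0.23, edgeR adjusted p = 0.034). None of the 3 overlapped between ages, although 15.04% of the Ifi205 windows also occur in other genes of the cluster, mainly in Ifi211. Ifi204, the most abundant of the family and a sensor of microbial DNA, was at 68.0, 63.5 and 89.8 CPM in old and at 71.0, 80.5 and 62.9 CPM in young libraries, with overlap (log2 fold change 0.05 ± 0.15, edgeR adjusted p = 0.90). Ifi207 had a log2 fold change of -0.25 and did not pass either (edgeR adjusted p = 0.46). The 3 calls remained without young replicate 3, and none remained without old replicate 1 or old replicate 2.

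Ifi27 and Ifi27l2a, neighbours within 9.5 kb on chromosome 12 that encode small hydrophobic proteins, differed in opposite directions. Ifi27l2a was at 46.0, 43.2 and 48.6 CPM in old and at 156, 170 and 133 CPM in young libraries (log2 fold change -1.74 ± 0.11, edgeR adjusted p = 0.00047). Ifi27 was at 199, 200 and 189 CPM in old and at 146, 145 and 133 CPM in young libraries (log2 fold change 0.47 ± 0.07, edgeR adjusted p = 0.0091). All 3 young libraries were close together for both genes. Ifi27l2a had the smallest adjusted p of the list and passed without each library in turn; Ifi27 lost its call without old replicate 1 or old replicate 2.

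**Figure D3:**
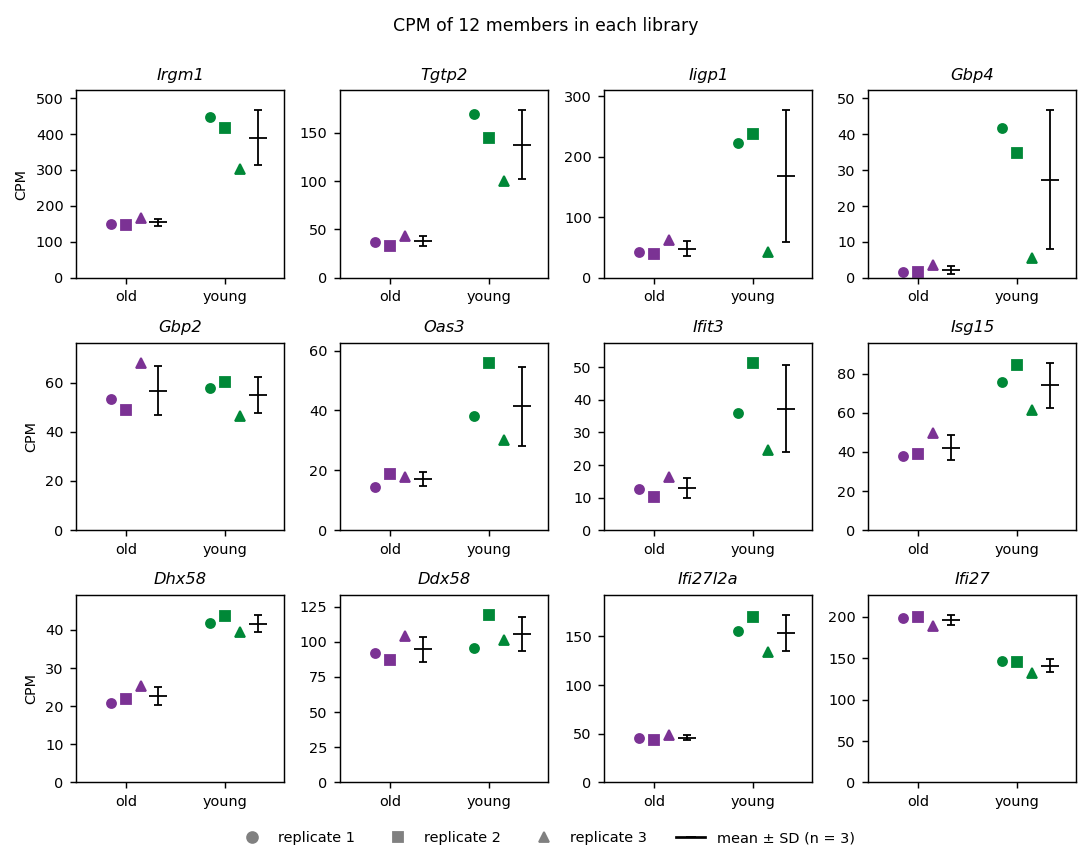
CPM of 12 of the genes in each library, old on the left and young on the right of each panel, with markers by replicate and the mean ± SD (n = 3) beside them; vertical axes start at 0 and differ between panels. Young replicate 3 (green triangle) is near the old libraries for Iigp1 and Gbp4 and near the other young libraries for Dhx58, Ifi27l2a and Ifi27.

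Among the remaining effectors, Cmpk2, a nucleotide kinase next to the viperin gene Rsad2, was at 15.4, 10.9 and 10.6 CPM in old and at 33.9, 48.3 and 19.6 CPM in young libraries (log2 fold change -1.46 ± 0.33, edgeR adjusted p = 0.032). Rsad2, which makes a chain-terminating nucleotide, had a log2 fold change of -1.29 ± 0.40 without overlap of ranges but did not pass (edgeR adjusted p = 0.093). Young replicate 2 was highest for both. Zbp1, a sensor of Z-form nucleic acid, was at 22.1, 23.7 and 37.5 CPM in old and at 67.2, 72.1 and 42.5 CPM in young libraries (log2 fold change -1.13 ± 0.26, edgeR adjusted p = 0.039). Samhd1, which breaks down deoxynucleotides, was higher, at 168, 154 and 178 CPM in old and at 127, 136 and 119 CPM in young libraries (log2 fold change 0.39 ± 0.09, edgeR adjusted p = 0.033). Neither Zbp1 nor Samhd1 overlapped between ages. The RNA-activated kinase Eif2ak2 and the exonuclease Isg20 did not pass (log2 fold changes -0.49 and 0.05, edgeR adjusted p = 0.074 and 0.89).

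Bst2, or tetherin, which holds budding virus at the cell surface, was at 59.0, 61.3 and 79.2 CPM in old and at 102, 116 and 95.5 CPM in young libraries (log2 fold change -0.65 ± 0.14, edgeR adjusted p = 0.026). Ifitm3, which stops virus entry at endosomes, was at 600, 621 and 757 CPM in old and at 860, 856 and 844 CPM in young libraries (log2 fold change -0.37 ± 0.10, edgeR adjusted p = 0.067). Old replicate 3 was nearest to the young libraries for both, and neither overlapped. Xaf1, a pro-apoptotic factor, was at 24.6, 24.8 and 30.5 CPM in old and at 44.6, 48.2 and 34.6 CPM in young libraries (log2 fold change -0.67 ± 0.15, edgeR adjusted p = 0.035). The other 6 genes of its group, Ifi44, Ifi35, Rtp4, Trim30a, Sp100 and Phf11d, had log2 fold changes from -0.82 to -0.23 and did not pass, and all 6 passed as lower without young replicate 3. Ifi44 was the most abundant of that group, at 69.3, 65.8 and 65.0 CPM in old and at 106, 111 and 61.0 CPM in young libraries, so young replicate 3 lay below every old library. The 3 genes of the PARP9-DTX3L group, which modify proteins with ADP-ribose and ubiquitin, did not pass with all libraries or with any library left out. Parp9 was the most abundant, at 55.5, 49.7 and 65.3 CPM in old and at 71.8, 75.4 and 67.8 CPM in young libraries (log2 fold change -0.34 ± 0.12, edgeR adjusted p = 0.13).

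Per kilobase of exon, Ifitm3 was the highest of the 58 genes at both ages, with a mean of 973 CPM per kb in old and 1259 CPM per kb in young macrophages. On the same scale Ifi27l2a had 99.2 CPM per kb in old and 331 CPM per kb in young macrophages, and took the third and second place. Ifi27 had 134 CPM per kb in old and 96.3 CPM per kb in young macrophages, so the order of the 2 neighbours was the reverse at the 2 ages. Mx1 was lowest at both ages, with 0.083 CPM per kb in old and 0.53 CPM per kb in young macrophages.

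The spread within young macrophages had the same order for most of the genes. Young replicate 3 was the lowest young library for 49 of 58 genes (84.5%, against 38.2% of all genes tested), and young replicate 2 the highest for 47 (81.0%, against 29.7%). Young replicate 3 lay above all old libraries for 38 genes, within the old range for 12 and below it for 8, whereas young replicate 1 lay above all old libraries for 48 genes and young replicate 2 for 52. Shares over all genes tested were not computed for these positions, so the counts only describe the 58 genes. The mean of young replicates 1 and 2 was a median 1.35 times young replicate 3 over the 58 genes and 0.995 times over all genes tested. By family this median ratio was 2.33 for the viperin pair, 2.14 for GBP, 2.12 for IRG, 1.70 for IFIT, 1.48 for the other effectors, 1.37 for OAS and for the ISG15 system, 1.23 for IFI200, 1.199 for Mx, 1.16 for IFI27, 1.09 for the RIG-I-like receptors, 1.08 for PARP9-DTX3L and for the membrane restriction factors, and 0.99 for the nucleic acid effectors. Among old libraries, old replicate 3 was highest for 46 genes (79.3%, against 35.3%).

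**Figure D4:**
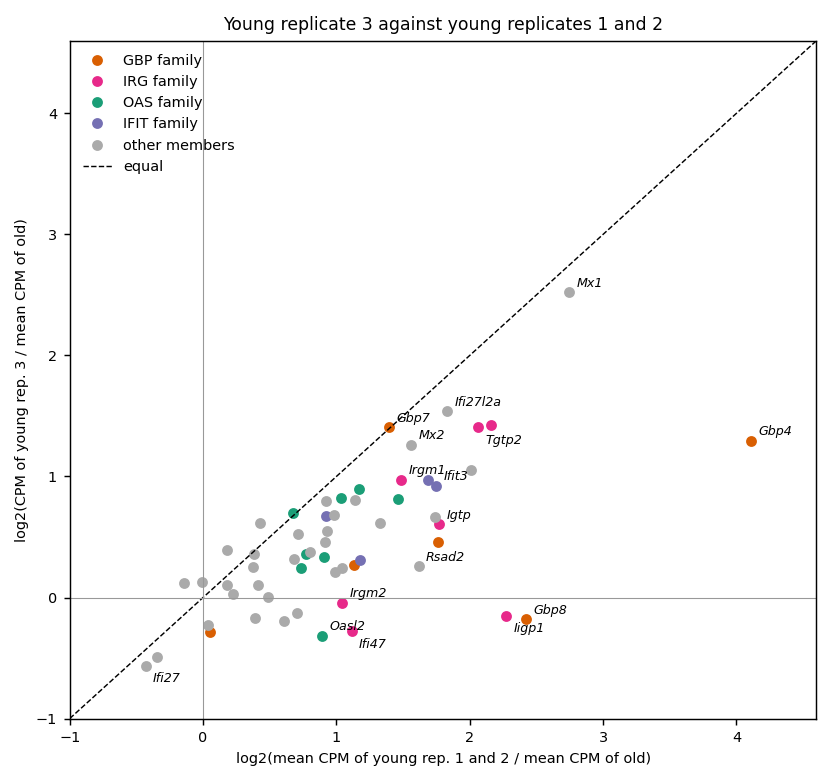
Each gene by the log2 ratio of the mean CPM of young replicates 1 and 2 to the old mean (horizontal) and the log2 ratio of young replicate 3 to the old mean (vertical); colours are families and the dashed line marks equal ratios. Most points lie below the line: Gbp4, Gbp8 and Iigp1 are far below it, and Mx1, Gbp7 and Ifi27l2a are near it.

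The number of calls depended on which libraries were in the fit. Without young replicate 3, 42 genes were lower in old macrophages (background 7.32% of genes tested) and all 28 calls of the full set remained. Without old replicate 1 there were 8, without old replicate 2 there were 7 and without old replicate 3 there were 18, against backgrounds of 1.94%, 1.86% and 2.67%. Without young replicate 1 there were 13 and without young replicate 2 there were 14, against backgrounds of 2.72% and 3.10%. In all 6 of these fits, Mx1, Dhx58, Irgm1, Tgtp1, Tgtp2 and Ifi27l2a were lower. Another 7, Oas1g, Usp18, Gbp4, Gbp9, Igtp, Cmpk2 and Xaf1, passed only in the fit without young replicate 3 among the 6. The remaining 13 each lost the call without old replicate 1 or old replicate 2, and some without a further library, with the highest adjusted p running between 0.052 for Gbp7 and 0.15 for Zbp1 (edgeR). Higher genes were fewer: Ifi27 and Samhd1 both passed without young replicate 3 (background 9.14% higher), Ifi27 alone without old replicate 3 (3.10%), young replicate 1 (3.39%) or young replicate 2 (3.90%), and neither without old replicate 1 (2.63%) or old replicate 2 (2.73%).

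**Figure D5:**
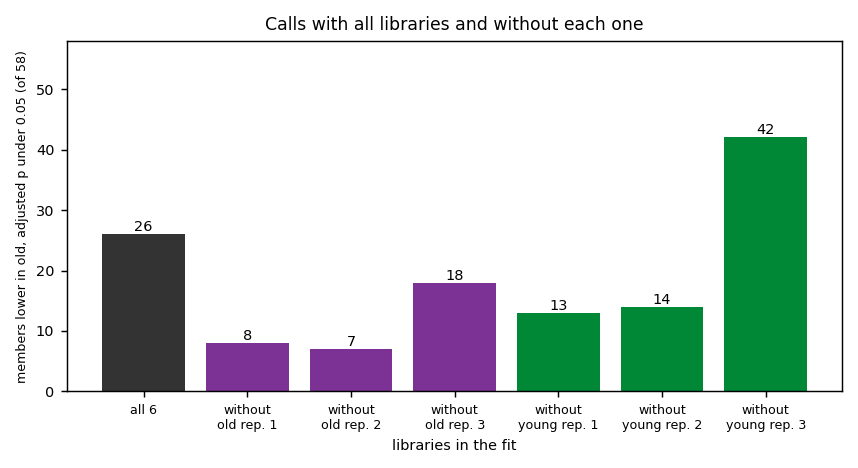
Number of the 58 genes lower in old at adjusted p under 0.05 with all 6 libraries (black) and with 1 old (purple) or 1 young (green) library left out. The bars run between 7 and 42, and the fit without young replicate 3 is the only one above the 26 of the full set.

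Other genes of the interferon pathway were read from a list of 130, of which 124 were matched and 100 tested. Of these, 21 were lower and 4 higher in old macrophages (background 4.70% lower and 5.84% higher), with a median log2 fold change of -0.30. Without young replicate 3, 41 were lower (background 7.32%). Ligand transcripts were nearly absent: of 17 interferon genes matched, 15 had 0 counts in all 6 libraries, Ifnb1 and the matched Ifna genes among them, where the floor used is 3 counts per library. Ifnz had 20 counts summed over the old and 11 over the young libraries (two-sided exact permutation test of CPM, p = 0.3). Ifng, the type II interferon, had 0 counts in each old library and 39, 7 and 2 counts in young replicates 1, 2 and 3 (two-sided exact permutation test of CPM, p = 0.1, the smallest possible with 3 against 3; 25.9% of its exon length overlaps the predicted gene Gm49751).

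The receptors showed little difference with all libraries. Ifnar1, Ifnar2, Ifngr2, Ifnlr1 and Il10rb did not pass, with log2 fold changes from -0.57 to -0.08. Without young replicate 3, 1 of the 6 receptors passed as lower. Ifngr1, the ligand-binding chain for Ifng, was higher, at 142, 140 and 132 CPM in old and at 112, 113 and 103 CPM in young libraries (log2 fold change 0.33 ± 0.07, edgeR adjusted p = 0.033). Among kinases and factors, Irf7, the factor that drives type I interferon genes, was at 47.9, 51.5 and 79.1 CPM in old and at 126, 115 and 98.8 CPM in young libraries (log2 fold change -0.93 ± 0.20, edgeR adjusted p = 0.029). The ranges did not overlap. Jak1, a kinase of both receptors, was higher in old macrophages, with 445 to 505 CPM in old and 263 to 347 CPM in young libraries (log2 fold change 0.62 ± 0.12, edgeR adjusted p = 0.016).

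Socs3, an inhibitor of cytokine receptor signalling, was at 382, 367 and 407 CPM in old and at 177, 200 and 207 CPM in young libraries (log2 fold change 0.99 ± 0.09, edgeR adjusted p = 0.0012). Of the negative regulators, Rnf125 was also higher and Ptpn6 lower (log2 fold changes 0.83 and -0.46, edgeR adjusted p = 0.014 and 0.047). Upstream sensing genes held 2 lower of 13: Tlr7, an endosomal receptor for single-stranded RNA, had a log2 fold change of -1.08 ± 0.11 (edgeR adjusted p = 0.0017), and Ddx60 of -1.28 ± 0.29 (edgeR adjusted p = 0.036). Other interferon-induced effectors were lower for 11 of 51, among them the peptide transporter Tap1 (log2 fold change -0.79 ± 0.11, edgeR adjusted p = 0.0064) and Slfn8 (log2 fold change -0.70 ± 0.11, edgeR adjusted p = 0.0088). Interferon-induced chemokines were lower for 4 of 8. Cxcl9, a T cell attractant, was at 0.16, 0.55 and 0.81 CPM in old and at 15.4, 10.6 and 2.53 CPM in young libraries (log2 fold change -4.26 ± 0.79, edgeR adjusted p = 0.016), and Cxcl10 and Ccl5 had log2 fold changes of -2.70 and -2.25 (edgeR adjusted p = 0.010 and 0.0089). Tlr7, Tap1, Slfn8, Ccl5 and Socs3 kept their calls in every fit that left out 1 library. Cxcl10 lost its call without old replicate 1 or old replicate 2, Cxcl9 without either of these or young replicate 1, Irf7 without any library but old replicate 3 or young replicate 3, Rnf125 without any old library and Jak1 without any old library or young replicate 2. Ifngr1, Ptpn6 and Ddx60 passed only without young replicate 3 among these fits.

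Marker lists of several cell types also differed between ages, and their part in the differences of the interferon genes was not tested. Of 16 macrophage markers, 13 were lower and 1, Vsig4, was higher in old macrophages, with a median log2 fold change of -0.94, and their summed level was 5475, 5074 and 5184 CPM in old and 9043, 9712 and 10772 CPM in young libraries. Of 16 leukocyte markers, 8 were lower, with a median of -0.42 and sums of 2840 to 2971 CPM in old and 3476 to 4059 CPM in young libraries; 2 were lower without old replicate 1 or old replicate 2, and 11 without young replicate 3. Lyz2, a lysozyme gene, made up most of the macrophage sum, at 3175, 2874 and 3157 CPM in old and 5106, 5767 and 7164 CPM in young libraries. Young replicate 3 was the highest young library for Lyz2, Siglec1, Csf1r, Mrc1 and Itgam, and the lowest for Adgre1, Fcgr1, C1qa, C1qb, C1qc, Cd14 and Marco. Of 8 osteoblast markers, 4 were lower, Dmp1, Ibsp, Sp7 and Runx2 (log2 fold changes -6.74, -4.46, -1.03 and -0.56, edgeR adjusted p = 0.00034, 0.0014, 0.014 and 0.029), and Spp1 was higher (0.60, edgeR adjusted p = 0.019). The osteoblast sums were 7148 to 8766 CPM in old and 6394 to 8007 CPM in young libraries, and without 1 library 2 to 5 of the markers were lower. Most of each sum was Spp1, at 6331 to 7789 CPM in old and 4202 to 4773 CPM in young libraries. Ibsp, which went the other way, was at 38.2 to 77.0 CPM in old and 657 to 1636 CPM in young libraries.

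Markers of T and natural killer cells summed to 9.88, 10.5 and 25.5 CPM in old and 26.0, 41.7 and 18.5 CPM in young libraries. Cd4 was lower and the other 7 tested were not called, at log2 fold changes from -2.22 for Ncr1 to 0.62 for Cd3e. Without young replicate 3 or old replicate 3, Ncr1 passed as lower (edgeR adjusted p = 0.017 and 0.045). Cd8a was at 0 counts in every old library and at 4, 11 and 0 counts in young libraries, and Klrb1c at 0 counts in every library but young replicate 1, where it had 9. The 10 neutrophil markers had log2 fold changes between -1.04 and -0.24 and did not pass the edgeR test with all libraries. Without young replicate 3, S100a8 passed as lower (edgeR adjusted p = 0.033). The neutrophil markers summed to 966, 902 and 1696 CPM in old and to 1735, 2318 and 1333 CPM in young libraries. The interferon genes summed to 2717, 2636 and 3211 CPM in old and to 4674, 5050 and 3525 CPM in young libraries. In all 3 sums young replicate 2 was highest and old replicates 1 and 2 were lowest, old replicate 3 was the highest of the old, and young replicate 3 the lowest of the young. None of the other marker lists had this order in their sums. Leukocyte markers were lowest of the young in young replicate 1, and macrophage markers highest in young replicate 3. Gzmb alone had 14.4 CPM in old replicate 3 and 14.6 CPM in young replicate 2, whereas Cd4 was at 11.1, 9.45 and 10.2 CPM in young libraries. Whether these orders are related was not tested. Siglech, a marker of plasmacytoid dendritic cells, which make much of the type I interferon in infection, had 5, 0 and 0 counts in old and 6, 5 and 0 counts in young libraries. Of the 5 tested markers on that list of 7, Ly6d was higher and Tcf4 lower (log2 fold changes 3.76 and -0.44, edgeR adjusted p = 0.0033 and 0.044), and the list summed to 73.4 to 81.2 CPM in old and 89.9 to 112 CPM in young libraries. Nearly all of this sum was Tcf4, at 67.6 to 73.1 CPM in old and 88.5 to 110 CPM in young libraries. Ly6d was at 4.66 to 5.80 CPM in old and 0.18 to 0.68 CPM in young libraries, and Ccr9, Pacsin1 and Cox6a2 did not exceed 1.08 CPM. Of 6 tested B cell markers 4 were higher and 1, Blnk, was lower (log2 fold change -0.53, edgeR adjusted p = 0.027). Without old replicate 1 or old replicate 2, 2 of them were higher. Of 6 megakaryocyte markers 4 were higher, with 1 higher without young replicate 3 and 1 to 5 over all fits that left out 1 library.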

How the data were processed

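Per the labels' protocols, amplified cDNA of 10000 cells per library, from a kit without strand marking, was read as 100-base pairs. The deposited values are whole-number read counts per gene. Per the submitters' processing notes, which give no roles, the software was StringTie 1.3.4d, HISAT2 2.1.0, STAR 2.6.1a, SAMtools 1.9, Picard 2.18.15, Trim Galore 0.50 and cutadapt 1.18, on mm10. The sources used here do not name the counter, its strand setting or its rule for multi-mapped reads. Reads of near-copies and overlapping genes may therefore be shared or lost.

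From the deposited counts, edgeR 4.0.16 (R 4.3.3) was run on all genes: filterByExpr, TMM, robust quasi-likelihood test on age, Benjamini-Hochberg over 15567 genes, threshold 0.05. SE is the absolute log2 fold change over the square root of F. CPM uses TMM-scaled library sizes. Symbols matched 37607 of 39017 identifiers. Positions, exon lengths and overlaps came from GENCODE M21 on GRCm38. Overlaps above 10% of exon length are named in the text for some genes only. Others include Ifi35 (16.8%, with Gm11626) and Rtp4 (13.9%, with Gm45338). Among the markers they include Itgam (68.7%, with Gm49368), Csf1r (15.1%, with Hmgxb3) and Spp1 (18.75%, with Gm42793). The tests were tried on simulated data. Interferon genes, pathway and marker lists were chosen with earlier results of these data known. Per-library values are given for called genes (up to 4 a family, smallest p) and each family's most abundant gene; Iigp1 and Ifi47 were added after their values were seen. A pathway gene that this choice names is not reported here. Alternatives included DESeq2 1.42.0 and limma 3.58.1 (voom). Counting error does not cover amplification.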

Additional observations from a re-analysis of the deposited data

How the results depend on the processing

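Leaving out 1 library at a time gave 7 to 42 interferon effector genes lower and 0 to 2 higher in old, and 5 to 41 pathway genes lower and 1 to 5 higher. With the replicate number as a block, 14 were lower and 1 higher, and 15 of the 28 calls remained. Same-numbered libraries correlated at 0.034 to 0.09 in their deviations, under the 0.1 that was set here to mark a pairing. Each library correlated best with its own number, but at values under this mark. This match was not tested, and nothing in the labels pairs the libraries. Whether same-numbered libraries share more than a number, such as a batch, cannot be told from these values. DESeq2's test called 32 pathway genes lower, and 38 interferon effector genes. The counts of the interferon genes under other size factors, limma-voom, no filter or at least 50 counts in 3 libraries were 25 to 29 lower, and 2 higher. Shares over all genes were not computed for the block, DESeq2's test or these settings, so their counts stand without a background. The median log2 fold change stayed between -0.95 and -0.61. Sign changed only for 4 genes without a call when 1 library was left out: the log2 fold change ran between -0.10 and 0.15 for Gbp2 and between -0.12 and 0.14 for Ifi204, negative without old or young replicate 3, between -0.045 and 0.15 for Isg20, negative without old replicate 3 or young replicate 2 (-0.0096), and between -0.44 and 0.15 for Parp14, positive without old replicate 1 or 2 or young replicate 2 or 3. The causes were not tested. A fit without a library has fewer samples, which lowers the calls over all genes too, except without young replicate 3. Mx1, Mx2, Oas1b and Oas1c stayed under 4 CPM, so few reads carry their values.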
